A study of Arabidopsis thaliana with 12 samples.

Results

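Of 22746 probe sets on the Arabidopsis thaliana array, 105 were higher in the lug-3 mutant in rosette leaves and in flowers alike. A probe set belonged to this group when the signals of all 3 lug-3 arrays lay above those of all 3 wild-type arrays in each tissue and the mean difference on the log2(signal + 8) scale was at least 0.5 in each. The members were thus chosen by their leaf and flower signals, and those differences are given below as a description with no test. A name of 1 gene was at hand for 51 members, 3 probe sets matched several genes, and 51 are unnamed here. The 4 groups of 3 arrays were wild-type plants and lug-3 plants, both in the Ler-0 (Landsberg erecta) background, each sampled as mature rosette leaves at growth stage 3.90 and as flowers at growth stage 6.90. Every sample was a pool of 20 plants grown at 20 °C in constant light after 4 days of seeds in the cold. The mutant is represented by the lug-3 allele alone. Separate growth of the 3 pools in a group is not recorded, so every p-value rests on a spread that may be partly technical.

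LEUNIG (LUG) encodes a transcriptional corepressor related to Groucho and Tup1 of animals and yeast. It does not bind DNA itself: the adaptor SEUSS (SEU) joins it to DNA-binding factors such as MADS-domain proteins, and the complex represses genes with the help of histone deacetylase and Mediator subunits. It is best known for keeping AGAMOUS out of the outer whorls of the flower, and it also shapes leaf blades and floral organs. The comparison asks which genes are candidates for repression by LUG in both tissues. Binding by LUG was not measured. The LUG transcript itself was not analysed here, because none of the named probe sets is assigned to it, and the genotype labels have no check from it.

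At the minimum difference of 0.5, the share of probe sets that met both criteria was near the background set by each tissue alone, and it lay above that background at larger minimum differences. The leaf criterion was met by 1838 probe sets (8.08% of all) and the flower criterion by 1372 (6.03%). The members made up 5.71% of the first set, against the 6.03% of all probe sets that met the flower criterion, and 7.65% of the second, against 8.08%. The 105 members were 0.462% of the array. With the minimum difference raised to 1, 37 probe sets met both criteria, 6.98% of the 530 that met the leaf criterion, while 1.22% of all probe sets met the flower criterion. At a minimum of 2 there were 5, 8.20% of 61, against 0.123%. Outside a stretch of chromosome 4 described below, 34 probe sets met both criteria at a minimum of 1 (6.63% of 513, against 1.22%). At a minimum of 2 there were 3 outside it (5.45% of 55, against 0.117%), all of them unnamed. Unnamed probe sets have no position here and were counted as outside the stretch, so linkage of these to it was not tested. The turned rule, lower in lug-3 in both tissues, was met by 159 probe sets (0.699%).

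Among the members the leaf difference ran from 0.50 to 3.35 with a median of 1.23, and the flower difference from 0.50 to 3.20 with a median of 0.89. The leaf difference was the larger in 71 members and the flower difference in 34. The differences were within 0.5 of each other in 60 members, the leaf difference was the larger by over 1 in 11 and the flower difference in 5. Whether single members differed between the tissues was not tested, because both differences had been used to choose them.

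**Figure D1:**
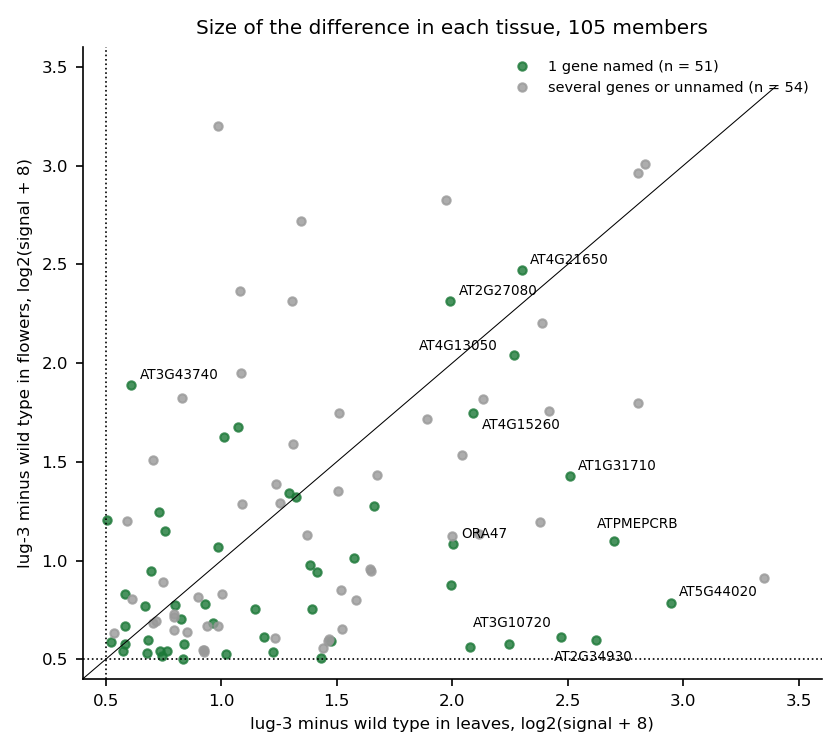
Each point is 1 of the 105 members, with the lug-3 minus wild-type difference in leaves on the horizontal axis and in flowers on the vertical axis, both as mean log2(signal + 8). Dotted lines mark the minimum of 0.5 and the diagonal marks equal differences. Below the diagonal lie 71 of 105 points, among them AT5G44020 (2.94 and 0.79), and AT3G43740 (0.61 and 1.89) is the labelled point farthest to the left.

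In the limma fit over all arrays, 96 of the 103 members that passed the filter on low signals were called higher in lug-3 leaves at an adjusted p below 0.05, where 11.3% of all tested probe sets were. In flowers 68 were called, where 5.27% of all were. The rule used these same contrasts, so the counts restate the choice. Leaving out 1 array lowered the flower count to 42 (wild-type flowers 1 or lug-3 flowers 2) or 45 (wild-type flowers 2 or lug-3 flowers 1). The number of probe sets meeting the rule was 201 without wild-type leaves 1 and 163 without lug-3 leaves 1, where non-overlap is easier to meet because fewer arrays are left. The members' median difference from wild type was 1.03, 1.202 and 1.30 on the 3 lug-3 leaf arrays. On the 3 lug-3 flower arrays it was 1.00, 0.98 and 0.71, so that the third flower array stood lowest.

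**Figure D2:**
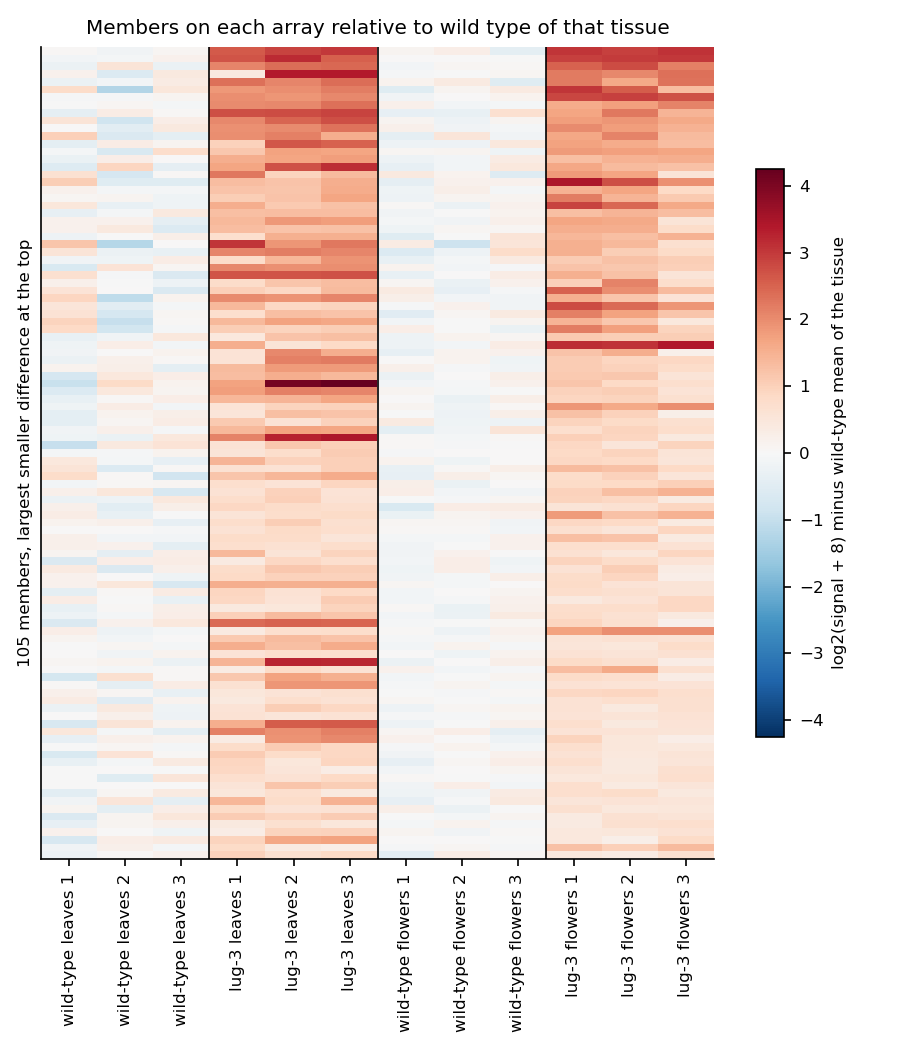
Each row is 1 of the 105 members, ordered by the smaller of its leaf and flower differences, and each column is 1 of the 12 arrays. Colour gives log2(signal + 8) minus the wild-type mean of the same tissue, from -1.25 to 4.26. The rule fixed the higher values on lug-3 arrays. The column median is lowest among lug-3 arrays on lug-3 flowers 3 (0.71).

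RNA quality and flower makeup moved with the groups. The GAPDH control probe sets give a 3′ over 5′ signal ratio that goes up with RNA degradation, and it was 1.71, 2.83 and 3.44 in wild-type leaves. In lug-3 leaves it ran from 1.47 to 1.68. It was 1.63 to 2.07 in wild-type flowers and 1.65, 2.02 and 3.10 in lug-3 flowers. With this ratio as a covariate all 105 members were still higher in lug-3 in both tissues, and 81 still met the whole rule. Named members that no longer met it were AT1G52770 (0.38 in leaves), AT2G43550 (0.42 in flowers), AT1G74070 (0.36 in flowers), AT3G22060, GH9B8 and AT3G10720. The others were AT1G15010, AT1G18740, AT1G56660, AT1G51080, AT5G54300, AT5G11410, AT4G27340, AT1G54955, AT3G28460, AT3G18050 and AT2G37510. Without the 3 arrays of highest ratio (lug-3 flowers 3 and wild-type leaves 2 and 3), 90 of the 105 met it, on a single wild-type leaf array. The 8 measured pollen, tapetum and seed coat markers all fell in lug-3 flowers (6.75% of all tested probe sets fell there), and the labels describe fewer stamens in lug-3 flowers. The largest fall was that of BAN, a seed coat marker (log2 difference -4.56, from 295 ± 62.1 to 4.80 ± 2.76). PLIM2b was also called lower in lug-3 leaves (-0.56, adjusted p = 0.0290 in the limma fit), where 11.0% of all tested probe sets fell. The marker list was chosen with earlier results of these data known. The summed signal of the 8 markers was 2232 to 2758 on wild-type and 605 to 853 on lug-3 flower arrays. On wild-type and lug-3 leaf arrays it was 90.1 to 93.6 and 66.6 to 77.4. In whole flowers a larger share of the remaining tissues and more RNA per cell cannot be told apart, and the part of these markers in the members' flower differences was not tested. None of the 3 measured leaf photosynthesis markers (RCA, LHCB4.1 and LHCB4.2) passed the test in flowers, with a median log2 difference of 0.27, and in leaves LHCB4.2 rose (0.65).

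Both transcription factor genes among the named members were at least 1 higher on the log2 scale in each tissue. ORA47, an AP2/ERF factor that acts in jasmonate responses, gave 106, 21.1 and 60.1 on the wild-type leaf arrays, 236, 223 and 250.5 on the lug-3 leaf arrays, 30.1, 21.8 and 20.8 in wild-type flowers and 82.6, 64.5 and 39.3 in lug-3 flowers. It was higher by 2.00 in leaves and 1.08 in flowers, and wild-type leaves 1 and 2 lay far apart without reaching the lug-3 arrays. AT5G50915, which encodes a basic helix-loop-helix factor, gave 34.8, 35.6 and 21.4 on the wild-type leaf arrays, 91.9, 127 and 121 on the lug-3 leaf arrays, 43.2, 40.9 and 54.4 in wild-type flowers and 163, 156 and 71.2 in lug-3 flowers. Its differences were 1.66 in leaves and 1.28 in flowers, and lug-3 flowers 3 stood well below the other lug-3 flower arrays. With the GAPDH covariate the leaf differences of ORA47 and AT5G50915 were 1.33 and 1.19, and the flower differences 1.35 and 1.47.

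Enzymes that are secreted or act on the cell wall made up 6 named members, with leaf differences of 1.43 to 2.94 and flower differences of 0.51 to 2.47. AT4G21650, a subtilase gene (subtilases are secreted proteases), gave 4.40, 13.2 and 3.93 on the wild-type leaf arrays, 54.5, 68.1 and 70.9 on the lug-3 leaf arrays, 76.6, 87.5 and 85.6 in wild-type flowers and 511, 612 and 393 in lug-3 flowers. It was higher by 2.30 in leaves and 2.47 in flowers, the largest named member by the smaller of its differences. ATPMEPCRB encodes a pectin methylesterase, an enzyme that removes methyl groups from wall pectin. Its signals were 54.9, 29.9 and 18.1 on the wild-type leaf arrays, 248, 245 and 254 on the lug-3 leaf arrays, 69.8, 91.3 and 113 in wild-type flowers and 271, 222 and 136 in lug-3 flowers. Wild-type leaves spread widely and lug-3 leaves hardly at all, with differences of 2.70 in leaves and 1.099 in flowers. AT3G10720, a second pectin methylesterase gene, gave 19.7, 39.6 and 49.5 on the wild-type leaf arrays, 216, 236 and 228 on the lug-3 leaf arrays, 116, 119.6 and 129 in wild-type flowers and 237, 201 and 143 in lug-3 flowers. The lug-3 flower arrays of AT3G10720 reached down to 143, close to the highest wild-type flower array, and its differences were 2.47 in leaves and 0.61 in flowers. After adjustment for the GAPDH ratio AT3G10720 no longer met the rule, though its differences were 2.65 and 0.54.

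AT5G44020, of the acid phosphatase family that also holds the vegetative storage proteins, gave 33.6, 31.1 and 56.0 on the wild-type leaf arrays, 196, 447 and 503 on the lug-3 leaf arrays, 46.8, 42.5 and 47.1 in wild-type flowers and 101, 92.6 and 63.5 in lug-3 flowers. Its leaf difference of 2.94 was the largest of the named members, with lug-3 leaves 1 the lowest of the lug-3 leaf arrays, and its flower difference was 0.79. XTH32, a xyloglucan endotransglucosylase/hydrolase gene that remodels wall xyloglucan, was higher by 2.00 in leaves and 0.87 in flowers. GH9B8, an endoglucanase gene of glycosyl hydrolase family 9, was higher by 1.43 in leaves and 0.51 in flowers, and its flower difference was 0.29 with the GAPDH covariate.

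Pectin and wall-loosening genes outside the group were counted beside these. Of 5 measured genes on that list of 18, 2 are members chosen for their leaf difference. Of the other 3, 2 rose in lug-3 leaves, where 11.3% of all tested probe sets did. This list and the acid phosphatase list were chosen with earlier results of these data known, so nothing is read from their shares. The pectin lyase-like gene AT4G23820 rose by 2.39 and the expansin gene EXPA8 by 1.48, from widely spread wild-type leaves (75.1 ± 51.8, SD, n = 3). The expansin gene EXPA4 differed by 0.26 without passing the test. In flowers ATPMEPCRB was the only gene of the list called higher, and EXPA8 fell by 2.13. Of 7 measured acid phosphatase genes, 1 is the member AT5G44020, chosen for its leaf difference, and 1 of the others, AT1G04040 (2.46), rose in leaves. The list's median leaf difference was -0.18, beside -0.01 over all tested probe sets. None of the 7 was called in flowers, where 5.27% of all were called higher, and AT1G04040 differed there by -0.17.

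**Figure D3:**
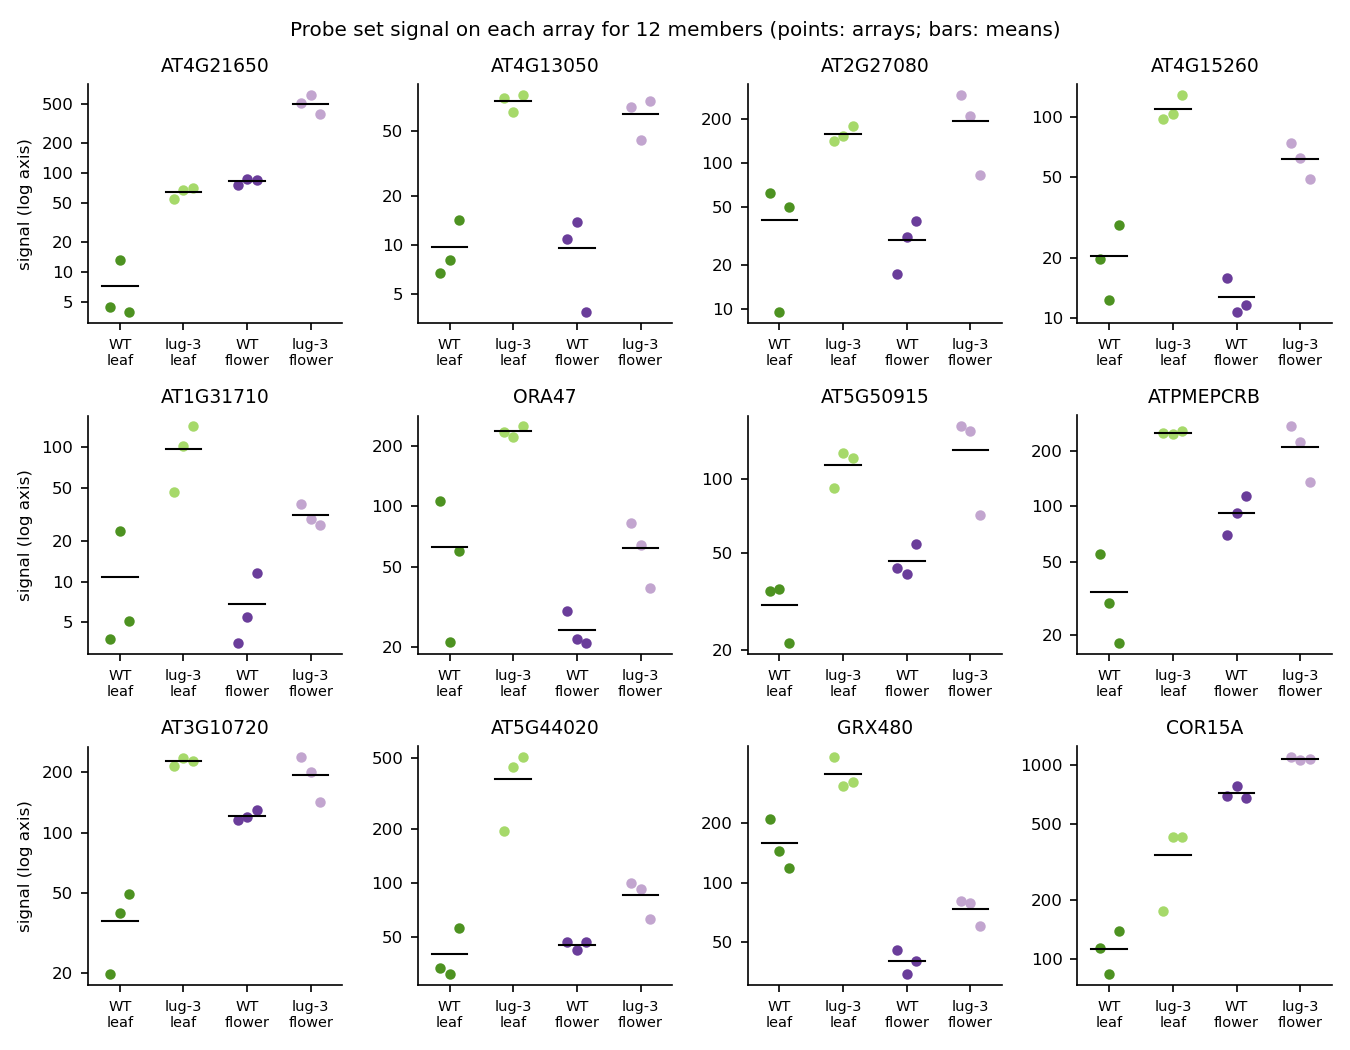
Signal on each of the 12 arrays for 12 named members, on a log axis, with points for arrays and bars for group means. In each panel the 3 lug-3 arrays lie above the 3 wild-type arrays of the same tissue, and wild-type leaf arrays are widely spread for AT2G27080 (9.51 to 62.6), ORA47 (21.1 to 106) and AT1G31710 (3.73 to 24.0).

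Genes of defence and of the cell surface made up 10 named members. AT2G27080, a gene of the family of NDR1/HIN1-like proteins that includes regulators of immunity, gave 62.6, 9.51 and 49.9 on the wild-type leaf arrays, 140.2, 154 and 180.2 on the lug-3 leaf arrays, 17.4, 31.3 and 39.8 in wild-type flowers and 289.8, 209.6 and 82.8 in lug-3 flowers. Differences were 1.99 in leaves and 2.32 in flowers, on widely spread arrays: wild-type leaves 2 was far below the other 2 and lug-3 flowers 3 was the lowest lug-3 flower array. AT5G48540, which encodes a secreted cysteine-rich repeat protein, gave 112, 90.5 and 90.7 on the wild-type leaf arrays, 237, 230.3 and 307 on the lug-3 leaf arrays, 35.0, 50.9 and 38.9 in wild-type flowers and 128, 148 and 79.6 in lug-3 flowers. It was higher by 1.33 and 1.32, nearly the same in leaves and flowers, but by 1.00 and 1.45 with the GAPDH covariate. AT3G22060, of the same family, was higher by 0.69 in leaves and 0.95 in flowers, with a leaf difference of 0.31 under the GAPDH covariate.

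Genes for leucine-rich repeat proteins, which often serve as receptors, were members in 3 cases that differed in tissue balance. AT2G34930 gave 8.43, 8.88 and 5.06 on the wild-type leaf arrays, 33.6, 136 and 133 on the lug-3 leaf arrays, 12.8, 17.2 and 21.3 in wild-type flowers and 36.0, 31.5 and 22.7 in lug-3 flowers. Its leaf difference was 2.62 and its flower difference 0.60, and lug-3 leaves 1 stood far below the other lug-3 leaf arrays. AT3G43740 showed the opposite balance, with 10.0, 7.14 and 11.8 in wild-type flowers and 49.5, 61.7 and 60.5 in lug-3 flowers, a difference of 1.89. Its leaf arrays came close, 19.0, 11.0 and 13.0 in wild type and 21.0, 27.8 and 28.8 in lug-3, a difference of 0.61 that was 0.32 without the 3 arrays of highest GAPDH ratio. AT3G17640 was higher by 0.93 in leaves and 0.78 in flowers.

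Other defence-related members were secreted proteins, a kinase and a resistance gene. AT2G43550, which encodes a small cysteine-rich protein of the defensin-like type, was higher by 2.25 in leaves and 0.58 in flowers (67.6 ± 30.2 to 348 ± 128, SD, n = 3, in leaves). ATLP-1, a thaumatin-like protein gene, was higher by 1.22 in leaves and 0.53 in flowers (189 ± 54.4 to 270.1 ± 7.92 in flowers). AT5G11410, a protein kinase gene, was higher by 0.67 in leaves and 0.77 in flowers at signals of at most 23.6. AT3G44400, a TIR-NBS-LRR resistance gene, failed the filter on low signals: its highest array read 14.0.

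Both glutaredoxin genes of the group were higher by similar amounts in flowers. GRX480, a salicylic acid-induced glutaredoxin that binds TGA factors, gave 211, 145 and 118 on the wild-type leaf arrays, 432, 309 and 322 on the lug-3 leaf arrays, 45.5, 34.3 and 40.2 in wild-type flowers and 80.9, 78.6 and 60.2 in lug-3 flowers. It was higher by 1.15 in leaves and 0.76 in flowers. AT4G15700, another CC-type glutaredoxin gene, was higher by 1.39 in leaves and 0.75 in flowers, at 5.25 ± 2.69 in wild-type flowers. GRX480 and WRKY53 were the measured genes of the salicylic acid and defence list of 19, and WRKY53 rose in flowers (1.75) but had a leaf difference of 0.09 (adjusted p = 0.916).

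Metabolic genes included some of the largest differences. AT4G13050, which encodes an acyl-ACP thioesterase that releases fatty acids from the plastid synthase, gave 6.70, 8.05 and 14.1 on the wild-type leaf arrays, 79.9, 65.3 and 82.7 on the lug-3 leaf arrays, 10.8, 13.8 and 3.84 in wild-type flowers and 70.1, 43.9 and 76.0 in lug-3 flowers. Each lug-3 array stood several-fold above each wild-type array, with differences of 2.27 in leaves and 2.04 in flowers. AT4G15260, a UDP-glycosyltransferase gene, gave 19.6, 12.3 and 29.0 on the wild-type leaf arrays, 97.8, 103 and 128 on the lug-3 leaf arrays, 15.8, 10.7 and 11.6 in wild-type flowers and 74.2, 62.4 and 49.0 in lug-3 flowers. Its differences were 2.09 in leaves and 1.75 in flowers. AT1G31710, a copper amine oxidase gene, gave 3.73, 24.0 and 5.10 on the wild-type leaf arrays, 46.4, 102 and 143 on the lug-3 leaf arrays, 3.50, 5.52 and 11.6 in wild-type flowers and 37.9, 29.2 and 26.6 in lug-3 flowers. AT1G31710 was higher by 2.51 in leaves and 1.43 in flowers, and wild-type leaves 2 lay well above the other wild-type leaf arrays. CER26 (AT4G13840), which acts in the elongation of very long chain fatty acids for surface wax, was higher by 2.08 in leaves and 0.56 in flowers (106 ± 37.2 to 458 ± 37.3 in leaves and 37.2 ± 10.2 to 57.7 ± 0.608 in flowers). AT1G77060, of a phosphoenolpyruvate carboxylase-like family, was higher by 1.42 in leaves and 0.94 in flowers, and the GDSL lipase gene AT1G31550 0.75 in leaves and 0.52 in flowers.

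Stress, plastid and transport genes were mostly near the minimum in flowers. COR15A, a chloroplast protein that protects membranes in the cold, gave 113, 83.0 and 139 on the wild-type leaf arrays, 177, 426 and 425 on the lug-3 leaf arrays, 692, 784 and 674 in wild-type flowers and 1100.0, 1066 and 1077 in lug-3 flowers. It was higher by 1.48 in leaves and 0.59 in flowers, with lug-3 leaves 1 close to the wild-type range. Of the 5 measured genes on the cold, drought and abscisic acid list, COR15A, the member, was called higher and COR47 fell in leaves, LTI30 and the ubiquitin ligase gene PUB19 rose in flowers (both 2.33), and no gene was called in both tissues in the same direction. The plastid fibrillin gene AT1G51110 was higher by 0.58 in leaves and 0.58 in flowers, and the cyclophilin-type gene AT1G74070 1.02 in leaves and 0.53 in flowers. The sugar transporter gene AT1G19450, of the ERD6-like type, was higher by 0.80 in leaves and 0.77 in flowers. SFP2, of the same type, was higher by 0.68 in leaves and 0.60 in flowers.

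Genes that act on RNA had differences below 1 in both tissues. AT4G17610, a tRNA/rRNA methyltransferase family gene, was higher by 0.96 in leaves and 0.68 in flowers, and AT4G27340, a tRNA methyltransferase gene, 0.52 in leaves and 0.59 in flowers. The RNA-binding protein gene AT2G37510 was higher by 0.74 in leaves and 0.54 in flowers. The methyltransferase gene AT3G28460 was higher by 0.83 in leaves and 0.50 in flowers. Other named members were AT5G01800, a saposin-type gene (1.29 in leaves and 1.34 in flowers), and the kinesin gene KICP-02 (0.57 in leaves and 0.54 in flowers). AT1G52770, related to the phototropism gene NPH3, was higher by 0.58 in leaves and 0.83 in flowers, the AAA-type ATPase gene AT5G17760 0.83 in leaves and 0.71 in flowers, and the lectin gene AT1G52100, which failed the filter on low signals, 0.68 in leaves and 0.53 in flowers.

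Of the 11 named members given no role here, AT1G15010, AT1G19380, AT1G18740, AT1G27030 and AT3G07350 were among the 15 largest named members by the smaller difference. AT1G18740 was higher by 1.01 in leaves and 1.62 in flowers, but on wild-type leaves it read 328, 101 and 174 against 377, 356 and 382 in lug-3 leaves. Its smaller difference was 0.62 without wild-type leaves 2, 0.17 with the 3 arrays of highest ratio left out and 0.23 under the GAPDH covariate. AT1G15010 was higher by 1.07 in leaves and 1.68 in flowers with a smaller difference of 0.45 when those 3 arrays were left out. AT1G19380 was higher by 1.58 in leaves and 1.01 in flowers, AT1G27030 0.99 in leaves and 1.07 in flowers and AT3G07350 1.38 in leaves and 0.98 in flowers. On the wild-type leaf arrays AT1G19380 read 261, 63.3 and 137, and its leaf difference was 0.91 under the GAPDH covariate. The other 6 were AT1G56660, AT1G54955, AT3G18050, AT5G54300, AT4G14840 and AT1G51080, with leaf differences of 0.58 to 1.18 and flower differences of 0.54 to 1.24.

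The 54 members without a name of 1 gene spanned 0.54 to 3.35 in leaves (median 1.31) and 0.54 to 3.20 in flowers (median 1.13). Of them 24 reached 1 in both tissues, against 13 of the 51 named members. The member with the largest smaller difference of all is an unnamed probe set, singled out after its values were seen. It gave 2.48, 1.18 and 2.74 on the wild-type leaf arrays, 53.9, 65.6 and 74.2 on the lug-3 leaf arrays, 6.70, 8.38 and 2.14 in wild-type flowers and 104, 92.2 and 105 in lug-3 flowers, that is, signals at the low end of the array in wild type and a clear signal on every lug-3 array.

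At the threshold, the named members just inside were GH9B8, AT3G44400 and AT3G28460, with smaller differences of 0.51, 0.50 and 0.50. Just outside were TBL26, AT1G21350 and AT4G01700, whose smaller differences were 0.49 each and whose arrays did not overlap in either tissue. Weak signals in wild type were about as frequent among the members as on the whole array. The wild-type leaf mean was below 16.4, the level used as the filter, for 34 members (32.4%, against 32.5% of all probe sets). The wild-type flower mean was below it for 27 (25.7%, against 27.9%), and both means for 19 (18.1%, against 23.2%). Of the 103 tested members, 10 passed the filter through lug-3 arrays alone.

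The members were next compared between the tissues, a contrast that the rule did not use although it used the same arrays. Tissue and growth stage cannot be told apart in it. In wild type 28 of 103 members were higher in flowers than in leaves, where 33.0% of all tested probe sets were, and 19 were lower, where 26.2% were. The 47 called in either direction stand beside 59.2% of all tested probe sets, but 10 of the 103 had passed the filter through lug-3 arrays alone. Among the 81 members with at least 3 wild-type arrays above the filter level, 27 were higher and 17 lower in flowers. Together that was 54.3%, beside 60.7% of the 16982 probe sets chosen in the same way, and whether the shares differ was not tested. The split depended on scaling, since quantile normalization moved the median of all genes in this contrast by -0.15 and median centring by -0.30. It became 23 higher and 28 lower with the former and 22 higher and 34 lower with the latter.

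The most flower-biased named members in wild type were ATLP-1 (log2 difference 3.93, SE 0.26, adjusted p = 1.08e-07), AT4G21650 (2.64), COR15A (2.62), AT2G43550 (2.62) and GH9B8 (2.43). ATLP-1 went from 5.08 ± 4.41 in wild-type leaves to 189 ± 54.4 in wild-type flowers (SD, n = 3). Lowest in flowers were AT1G52770 (-1.84, SE 0.14, adjusted p = 3.09e-07), GRX480 (-1.76), AT3G22060 (-1.62), AT4G13840 (-1.31) and AT5G48540 (-1.10). Among these 10 genes AT5G48540 had the highest adjusted p (0.000709), and all 10 kept direction and call under every alternative run, with adjusted p up to 0.00437 (AT5G48540 without wild-type flowers 1). They were picked as the extremes among members called in this same contrast, so keeping the call was likely in advance and says little about the other members.

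In lug-3 the same contrast called 29 members higher in flowers, where 31.7% of all tested probe sets were, and 31 lower, where 19.4% were. Either way 60 of 103 were called, where 51.1% of all were, and the split became 23 higher and 39 lower after median centring. Of the 28 flower-biased members of wild type, 21 were also called higher in lug-3 flowers (75%, against 67.2% of all flower-biased probe sets). Of the 19 leaf-biased ones 17 were also called lower (89.5%, against 56.8%). The lug-3 arrays in this contrast had been used to choose the members, so nothing is read from these shares. One unnamed probe set, singled out after its values were seen, was lower in wild-type flowers (-1.05) and higher in lug-3 flowers (1.17).

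For 10 of the 28 flower-biased members the lug-3 leaf level, which the rule had selected to be high, lay above the wild-type flower level. That was 35.7%, against 4.12% of all flower-biased probe sets, and the selection alone raises this share. ATPMEPCRB read 249 ± 4.54 in lug-3 leaves and 91.4 ± 21.8 in wild-type flowers, AT3G10720 227 ± 10.1 and 122 ± 6.98, and XTH32 223 ± 31.3 and 130.3 ± 10.0. In lug-3 the difference between flowers and leaves did not pass the test for these 3 wall genes (-0.29, -0.25 and 0.14, adjusted p 0.448, 0.416 and 0.638). The change between genotypes was not tested. Their wild-type differences were 1.30, 1.61 and 1.26. The 3 wall genes were picked for a lug-3 leaf level above the wild-type flower level, which favours a small difference in lug-3. AT4G21650 and GH9B8, the other flower-biased secreted and wall enzyme genes, had lug-3 leaf levels below their wild-type flower levels. Both were also called higher in lug-3 flowers (2.81 for AT4G21650, and adjusted p = 0.000699 in the limma fit for GH9B8). ATLP-1 and COR15A were also called higher there (3.24 and 1.74). The leaf-biased AT5G48540 read 118 ± 35.1 in lug-3 flowers and 97.8 ± 12.4 in wild-type leaves.

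**Figure D4:**
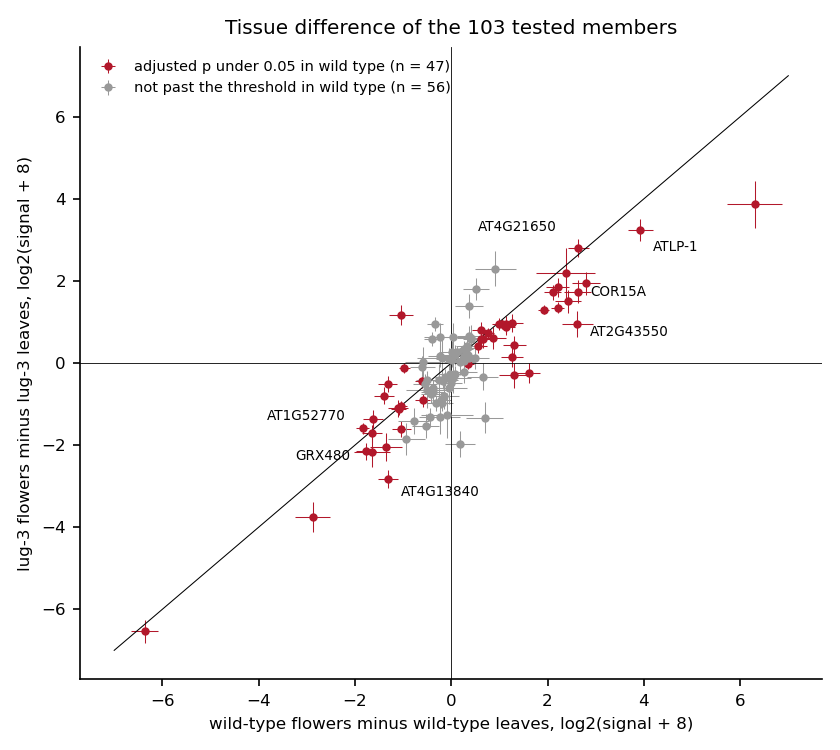
The difference between flowers and leaves in wild type (horizontal) and in lug-3 (vertical) for the 103 tested members, as mean log2(signal + 8) with standard errors from the limma fit. Red points were called in wild type (47) and grey points were not (56), and the diagonal marks an equal difference. The points farthest to the right, ATLP-1 (3.93 and 3.24) among them, lie below the diagonal, as do AT2G43550 (2.62 and 0.95) and AT4G13840 (-1.31 and -2.82).

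By position, the named members lay on all 5 chromosomes, with 18 on chromosome 1, 7 on chromosome 2, 9 on chromosome 3, 9 on chromosome 4 and 8 on chromosome 5. Chromosome 1 had the highest share of its named probe sets (0.522%) and chromosome 4 the next (0.459%). Of the 5 largest named members 3 lay on chromosome 4, between AT4G13050 and AT4G21650. That stretch was chosen after the positions had been seen. It held 7 members among 451 probe sets of 1 gene (1.55%, against 0.337% elsewhere), namely AT4G13050, AT4G13840, AT4G14840, AT4G15260, AT4G15700, AT4G17610 and AT4G21650. It also held 14 of the 89 named probe sets lower in both tissues (3.10% of the stretch, against 0.659% of all). LUG lies on the same chromosome, 1445 annotated genes beyond AT4G21650. One pair of named members, AT1G51080 and AT1G51110, lay within 10 genes of each other.

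**Figure D5:**
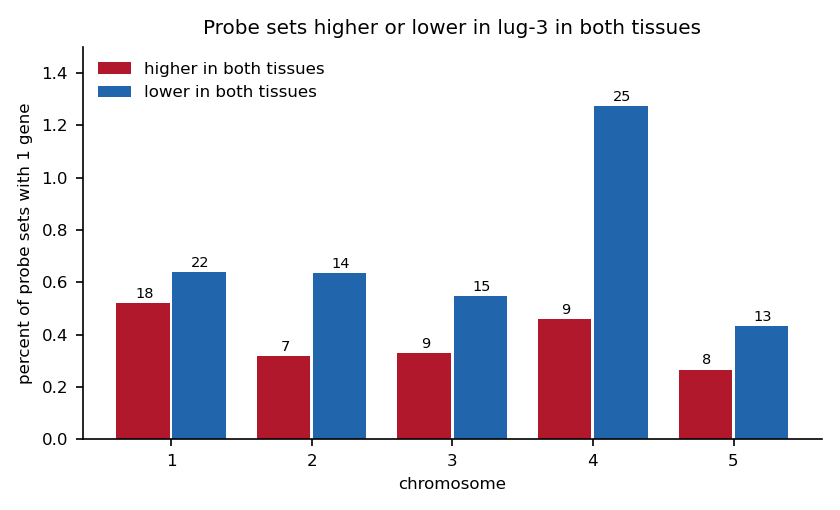
Percent of the probe sets with 1 gene on each chromosome that were higher (red) or lower (blue) in lug-3 in both tissues, with the number of probe sets above each bar. The shares of higher probe sets run from 0.266% on chromosome 5 to 0.522% on chromosome 1, and the tallest bar is that of lower probe sets on chromosome 4 (1.27%).

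Of 35 listed partners and floral targets of LUG, 7 had a named and tested probe set, and none of these was a member. The others were not analysed here. SEU, the adaptor, fell in leaves (152 ± 2.81 to 119.8 ± 2.86, log2 difference -0.33, adjusted p = 0.0270), where 11.0% of all tested probe sets fell. In flowers the carpel gene SPT rose (0.57), and YAB5 and INO, of the YABBY polarity family, fell (-0.69 and -0.71). AGL24, a MADS-domain gene of flowering, came nearest to the group with 1.00 in leaves and 0.90 in flowers, with 20.3 ± 15.5 in wild-type leaves, and neither difference passed the test (adjusted p = 0.0796 and 0.157). YAB3 and PHV were not called in either tissue. Of the 3 measured jasmonate genes JMT (1.53) and THI2.1 (0.77) rose in leaves, where 11.3% of all tested probe sets did, and none was called in flowers. The lists were chosen with earlier results of these data known, so nothing is read from such shares. Of the measured senescence genes WRKY6 fell in leaves (-0.99, adjusted p = 0.0449), and SAG29 was not called in either tissue.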

How the data were processed

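Transcript levels were measured with 1 Affymetrix ATH1 array per sample. The deposited intensity values are probe set signals on a linear scale, made by the authors. MAS5 and GCOS are named per the submitters' processing notes, without versions. Each deposited array had a trimmed mean of 100.0 (2% off both tails), so no further scaling was applied. Median signals were 38.3 to 41.0 on leaf and 48.8 to 52.6 on flower arrays. Precision is limited by having 3 arrays in each group. The 64 control probe sets were left out, leaving 22746. GEO's platform annotation gave 1 gene for 13513, several for 503 and none for 8730, and 13436 were matched by Entrez ID to RefSeq (TAIR10.1) symbols. No sequence table was at hand, so no sequences are shown.

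Signals were taken as log2(signal + 8), which understates changes of weak genes. The test took the 17877 probe sets whose signal exceeded 16.4 (30th percentile over all arrays) on 3 or more arrays. One linear model with 4 group means was fitted with limma 3.58.1 in R 4.3.3 (8 residual and 3.79 prior degrees of freedom), two-sided, with Benjamini-Hochberg adjustment over all tested probe sets and a call at 0.05. The procedure was tested on simulated data.

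The members and lists were chosen with earlier results of these data known. Genes were named by rule: the 15 largest by the smaller difference, the 6 largest in leaves and in flowers, the 5 highest and 5 lowest in wild-type flowers, transcription factors, list genes and those next to the threshold, 29 members in all. The other 22 named members, their classes and the chromosome 4 stretch were chosen after their values were seen. Alternatives were another pseudocount, filter, scaling, array weights, the GAPDH ratio as covariate, the replicate block, single tissues, single arrays left out and, added after the data were seen, the 3 arrays of highest GAPDH ratio left out.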

Additional observations from a re-analysis of the deposited data

How the results depend on the processing

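The number of probe sets meeting the rule was 64 with a pseudocount of 32, 37 with a minimum difference of 1, 466 with non-overlap alone, 114 to 201 with each array left out in turn, and 228 without the 3 arrays of highest GAPDH ratio. With a pseudocount of 1 it was 141, after quantile normalization 107 (96 shared with the members), after median centring 95, with the GAPDH covariate 117 (81 shared) and with a limit on mean signal 97. All 105 members stayed higher in lug-3 in both tissues with the GAPDH covariate and under both other scalings (quantile, median). The rule itself fixes their direction under another pseudocount or with arrays left out. The scalings moved the median of all genes by only -0.025 to -0.00046 in the contrasts of lug-3 with wild type. Members chosen for a difference of at least 0.5 could thus hardly reverse under them. Of 522 values of the smaller difference for the 29 genes named by rule, 499 moved by less than the spread between replicates, 23 by more and none reversed. None could reverse with another pseudocount or with arrays left out, and hardly any could under the scalings. A smaller difference lying in flowers also often stayed unchanged when a leaf array was left out, as for AT4G15260 (1.75). The 499 thus include values that could hardly move. Members called in flowers were 42 to 78 with each array left out in turn, against 68. Over all probe sets the leaf calls, 3993, became 1950 with the leaf arrays alone, 2600 without lug-3 leaves 2 and 2581 without lug-3 leaves 3. The flower calls, 2150, became 1151, 1199, 1312 and 1231 without wild-type flowers 1 or 2 or lug-3 flowers 1 or 2, and 5059 with array weights. With the replicate block the members called were 94 in leaves, 64 in flowers, 50 between wild-type tissues and 59 between lug-3 tissues, against 96, 68, 47 and 60. Deviations of same-numbered samples correlated at -0.109 to 0.18 over all pairs of groups, and no pair of groups had all 3 above 0.1. The main fit treated samples as unpaired, but with 3 arrays a group these correlations cannot exclude a shared batch. Non-overlap is easier to meet with fewer arrays. Higher counts under the rule with arrays left out thus do not by themselves mark an array as unusual. The cause of the other shifts was not tested. The depth of signal limits weak members: near background a difference of 0.5 rests on a few signal units.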

Other observations

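Single unnamed members had extreme values. One was the most leaf-biased member in wild type (log2 difference -6.36, adjusted p = 3.95e-09) and had flower signals of 2.44, 0.970 and 4.35 in wild type and 17.0, 12.7 and 4.53 in lug-3, a flower difference of 0.83 at low signals. Another was the most flower-biased (6.30), and its leaf signals went from 2.14, 26.4 and 13.6 in wild type to 56.1, 323 and 367 in lug-3, the largest leaf difference of the group (3.35). In one more, lug-3 leaves 1 read 46.3, next to 46.0 on wild-type leaves 3, while the other lug-3 leaf arrays read 415 and 419.5. These probe sets were chosen after their values were seen, and no test was run on them beyond the tissue contrast.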
